A study of Homo sapiens with 6 samples.

Results

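Dysferlin, its paralog myoferlin, 4 annexins and 4 of their partners were followed in HCCLM3, a metastatic human liver cancer cell line. The genes were DYSF, MYOF, ANXA1, ANXA2, ANXA5, ANXA6, S100A10, S100A11, CAPN1 and AHNAK, and each of these 10 names matched 1 of the 58302 genes listed in every library. They were picked by name as membrane repair genes after the comparison of SCARNA13 ASO with Control ASO was known. Differences between the groups are therefore given for them as a description, with no test, also where they stand beside the values of all genes. All 10 had a mean of at least 1 FPKM (fragments per kilobase of gene length and library size, on the deposited scale), as did 10120 genes in all.

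Total RNA was sequenced from HCCLM3 cells transfected with Control ASO or with SCARNA13 ASO. ASOs (antisense oligonucleotides) base-pair with a target RNA and can bring about its loss, and SCARNA13 is a small Cajal body-specific RNA. Each group held 3 libraries, all from this single line. ASO sequence, dose and duration, and whether replicates came from separate cultures, are not stated in the sources used here. Spread between libraries, on which every p-value rests, may thus be technical. Reads assigned to genes ran from 20457474 to 25173559 per library. The library size implied by the deposited FPKM was 1.21 to 1.24 times these reads in replicates 1 and 2. It was 0.633 times in control replicate 3 and 0.760 times in SCARNA13 ASO replicate 3. Ratios within replicate 3 are thus lower on the deposited scale than on the scale of total reads. Replicate 3 stood apart in both groups, with log2 correlations of 0.900 to 0.939 to libraries of other numbers, against 0.988 to 0.994 among libraries of replicates 1 and 2. The liver label was poorly matched by hepatocyte markers: 1 of 10 (SERPINA1) had a mean of at least 1 FPKM and ALB, APOA2, FGB and APOB were listed at 0 in all libraries. The keratin genes KRT8, KRT18 and KRT19 had control means of 1151, 1574 and 519 FPKM, while EPCAM and GPC3 were below 1 FPKM or listed at 0. Of 9 skeletal muscle markers, 0 reached a mean of 1 FPKM, and their summed level was 0.0800 to 0.112 FPKM in the controls and 0.00556 to 0.521 FPKM after SCARNA13 ASO. Among 8 monocyte and macrophage markers, only CD14 reached 1 FPKM, with PTPRC at no more than 0.0365 FPKM in any library and LYZ listed at 0, and the summed level was 2.95 to 7.09 FPKM in controls against 2.31 to 3.40 FPKM.

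When the plasma membrane tears, calcium flows in and draws repair proteins to the wound. Ferlins are large membrane-anchored proteins with calcium-binding C2 domains that take part in vesicle fusion, and loss of dysferlin causes limb-girdle muscular dystrophy. Annexins bind acidic phospholipids in a calcium-dependent way and gather at the wound, S100 proteins bind annexins as dimers, calpains are calcium-activated proteases that cut repair substrates such as dysferlin, and AHNAK is a giant scaffold that binds dysferlin and the annexin A2 complex with S100A10. In carcinoma cells, several of these genes are also studied for roles in migration and in vesicle traffic.

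The promoters of the ferlin pair are shown because DYSF and MYOF had the largest differences among the 10 genes, and because neither window holds an annotated exon. Each is the 250 bases before the RefSeq start site on GRCh38.p14, 5′ to 3′ on the strand of the gene, with capitals where 1 of 7 searched motifs matched on either strand. The window of DYSF lies at chr2:71453311-71453560 on the plus strand, upstream of the gene start in the deposited files, and that of MYOF lies at chr10:93482335-93482584 on the minus strand.
DYSF: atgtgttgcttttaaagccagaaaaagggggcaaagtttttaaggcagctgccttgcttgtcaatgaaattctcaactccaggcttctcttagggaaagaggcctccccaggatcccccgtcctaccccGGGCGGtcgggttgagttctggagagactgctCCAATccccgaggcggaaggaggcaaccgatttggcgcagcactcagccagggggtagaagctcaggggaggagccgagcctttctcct
MYOF: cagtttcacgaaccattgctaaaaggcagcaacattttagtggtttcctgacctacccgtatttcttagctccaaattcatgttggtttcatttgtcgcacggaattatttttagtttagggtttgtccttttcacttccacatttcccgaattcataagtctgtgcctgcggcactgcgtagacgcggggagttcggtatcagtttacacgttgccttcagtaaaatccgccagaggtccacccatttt

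In the DYSF window the capitals mark a GC box (GGGCGG) 121 bases before the start and a CCAAT box (CCAAT) 89 bases before it. The MYOF window held none of the 7 motifs, which were these 2 and the TATA box (TATAAA), the AP-1 site (TGANTCA), the TEAD site (GGAATG), a SOX site (ACAATG) and the E-box (CACGTG). The windows had 56.4% and 44.4% GC, against a median of 58.0% over 35116 promoter windows. All 10 genes matched the RefSeq table, with 13 windows between them. A GC box was present in 9 of these 13 windows (8 genes) and in 42.6% of all windows, and a CCAAT box in 5 of the 13 (4 genes) and in 32% of all windows. The CAPN1 windows that start at 65181544 and 65181678 overlap, and a GC box and a CCAAT box that they share count in both. A TATA box lay 31 bases before the start of both ANXA1 and ANXA2, and 10.7% of all windows held one. The TEAD and SOX letters were in 0 of the 13 windows, against 11.9% and 9.29% of all windows, which says only that these letters are not in these stretches.

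Per gene length, the S100 genes were the most abundant of the 10 and DYSF the least, as the plot of FPKM by library shows. S100A11, a calcium-binding partner of annexin A1, had 1003, 982 and 3305 FPKM in the controls and a mean of 1763 ± 1335 (SD, n = 3), rank 31 of the 10120 genes. S100A10, which forms a heterotetramer with annexin A2, followed at 323 ± 108 FPKM (SD, n = 3). ANXA2 had 128 ± 27.7 and ANXA5 105 ± 12.1 FPKM (SD, n = 3), and their gap was smaller than the spread of ANXA2. CAPN1 at 60.4 ± 38.0, ANXA1 at 54.0 ± 22.3, AHNAK at 40.8 ± 11.5, MYOF at 39.5 ± 13 and ANXA6 at 30.9 ± 7.0 FPKM (SD, n = 3) formed a run of levels in which no neighbours differed beyond their SD, which replicate 3 widens. In control replicates 1 and 2, ANXA1 (67.0 and 66.8), CAPN1 (38.5 and 38.4) and ANXA6 (27.0 and 26.7 FPKM) were apart. AHNAK (46.4 and 48.5) and MYOF (46.6 and 47.5 FPKM) lay together between ANXA1 and CAPN1. DYSF stood below all of them at 2.75 ± 0.479 FPKM (SD, n = 3), rank 6891 of 10120.

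**Figure D1:**
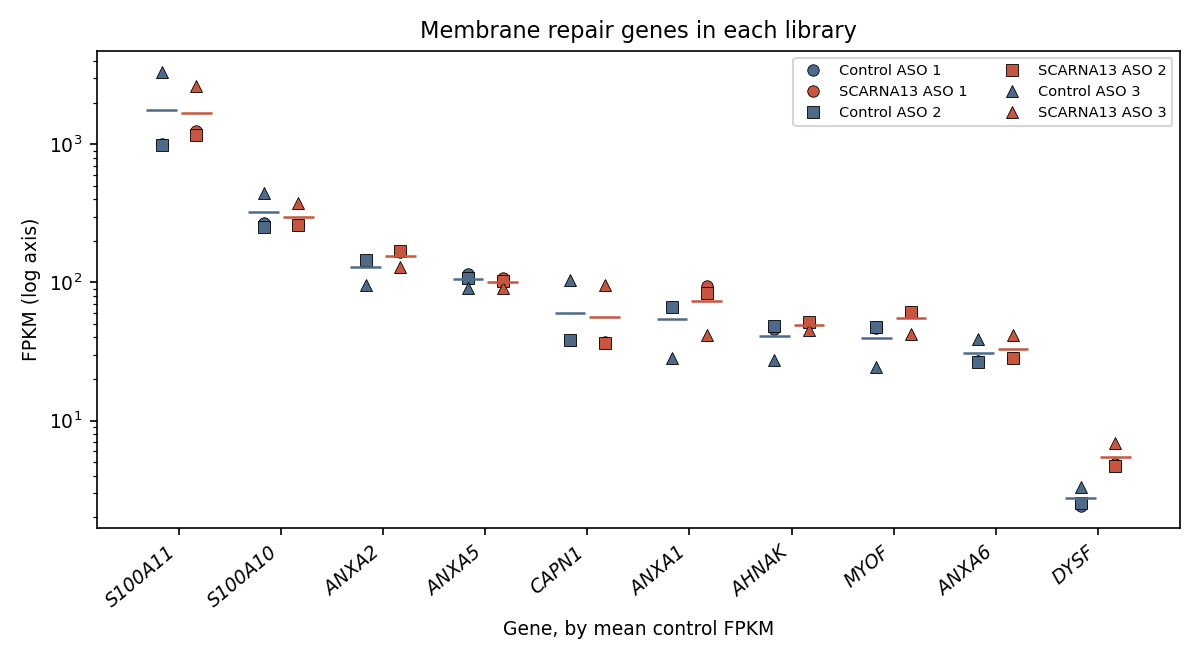
FPKM (log axis) of the 10 genes in the 6 libraries, with circles, squares and triangles for replicates 1, 2 and 3, blue for Control ASO, red for SCARNA13 ASO and horizontal lines for the means of 3 libraries. The 3 SCARNA13 ASO values of DYSF (4.67 to 6.88 FPKM) lie above its 3 control values (2.40 to 3.30 FPKM), while the groups of the other genes overlap.

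The order in the middle of the range differed between libraries. In control replicates 1 and 2, CAPN1 was the 8th of the 10 genes, at 38.5 and 38.4 FPKM, and in control replicate 3 it was the 3rd, at 104 FPKM, above ANXA2 at 96.5 FPKM. ANXA1 went the other way, from 67.0 and 66.8 FPKM (5th) to 28.3 FPKM (7th). The level of ANXA2 also depended on the length used. The files give it a gene length of 8824 bases, the union of its exons, while the GENCODE 29 transcript with its longest coding sequence has 1444 bases. If all reads came from such transcripts, ANXA2 would stand at 785 ± 169 FPKM and S100A10 at 415 ± 138 FPKM (SD, n = 3), and ANXA2 would move from the 3rd to the 2nd place. AHNAK, whose gene length of 19465 bases is close to that of its coding transcript (18787), would move from the 7th to the 9th place.

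DYSF, on chromosome 2 at 71453722 to 71686768 (GRCh38, plus strand), had its 3 SCARNA13 ASO values above its 3 control values. Controls had 2.40, 2.55 and 3.30 FPKM and SCARNA13 ASO libraries 4.89, 4.67 and 6.88 FPKM, in the order of the replicate numbers. These values rest on 613, 570 and 362 reads against 1114, 1116 and 897. The groups did not overlap, and within each replicate number the ratio was 2.04, 1.83 and 2.09. Over all genes, 4.0% had every SCARNA13 ASO value above every control value, and 4.44% had every one below. The log2 fold change was 0.87 ± 0.21 (SE, n = 3) with group as the only term and 0.87 ± 0.078 with a replicate block alone. With block and GC correction it was 0.93 ± 0.099, a larger SE than with the block alone. After GC correction, the log2 differences in replicates 1, 2 and 3 were 0.91, 0.74 and 1.15. These fits used log2(FPKM + 0.5), where the added 0.5 shrinks the fold of so low a gene. Over the settings tried the log2 fold change ran from 0.71 to 1.03.

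MYOF, on chromosome 10, is the ferlin these cells mainly had. It measured 46.6, 47.5 and 24.6 FPKM in the controls and 61.1, 61.5 and 42.3 FPKM after SCARNA13 ASO, so that replicate 3 was the lowest of each group and the groups overlapped. Within each replicate number the SCARNA13 ASO library was higher, by ratios of 1.31, 1.30 and 1.72. The log2 fold change was 0.51 ± 0.35 with group only and 0.51 ± 0.081 (SE, n = 3) with block and GC correction. With group only it was 0.20 without control replicate 3 and 0.69 without SCARNA13 ASO replicate 3. The level of MYOF over that of DYSF was 19.4, 18.6 and 7.45 in controls and 12.5, 13.2 and 6.14 after SCARNA13 ASO, lower in 3 of 3 replicate numbers. The remaining ferlin genes were nearly silent: OTOF, FER1L4 and FER1L5 had means below 1 FPKM in both groups, and FER1L6 was listed at 0 in all 6 libraries.

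ANXA1, on chromosome 9, encodes annexin A1, known also as an anti-inflammatory mediator. Its control values were 67.0, 66.8 and 28.3 FPKM and its SCARNA13 ASO values 93.6, 84.4 and 41.9 FPKM. Replicates 1 and 2 did not overlap between the groups, but both replicate 3 libraries fell below all of them. The ratios were 1.40, 1.26 and 1.48, and the log2 fold change was 0.46 ± 0.48 with group only and 0.43 ± 0.051 (SE, n = 3) with block and GC correction. The value with group only rested on the replicate 3 libraries, at 0.049 without that of the controls and 0.82 without that of SCARNA13 ASO, and was 0.41 without both.

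ANXA2, on chromosome 15, encodes annexin A2, which links membranes to actin. It had 144, 145 and 96.5 FPKM in the controls and 165, 168 and 130 FPKM after SCARNA13 ASO, with ratios of 1.15, 1.16 and 1.34. Its log2 fold change was 0.28 ± 0.28 with group only and 0.27 ± 0.055 (SE, n = 3) with block and GC correction. Leaving out replicate 3 of the controls gave 0.086 with group only, and leaving out that of SCARNA13 ASO gave 0.40. A processed copy, ANXA2P2 on chromosome 9, took 4.25% to 5.18% of the reads assigned to both genes. Over 1020 aligned bases the copy matched the coding transcript of ANXA2 at 98.4% of positions, with no gap and a longest identical run of 221 bases, so that reads could be placed on either. The stretch of 60 bases with the most differences is shown, with the 5 differing bases in capitals.
ANXA2: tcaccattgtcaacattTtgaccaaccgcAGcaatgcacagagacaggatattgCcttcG
ANXA2P2: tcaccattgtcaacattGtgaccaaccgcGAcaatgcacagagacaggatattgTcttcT

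With the reads of gene and copy added together, the log2 ratios were 0.20, 0.21 and 0.42 over the replicate numbers, against 0.20, 0.22 and 0.43 for ANXA2 alone. Adding the copy moved the difference of ANXA2 by no more than 0.01 on the log2 scale in any replicate number. ANXA2P2 itself had a mean of 58.4 ± 11.1 FPKM with Control ASO against 64.7 ± 10.8 FPKM with SCARNA13 ASO (SD, n = 3; 0.16 ± 0.056 on the log2 scale, limma adjusted p = 0.128 with block and GC correction).

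ANXA5 and ANXA6 showed smaller differences. ANXA5, the annexin used to stain dying cells, had 115, 108 and 91.9 FPKM in the controls and 107, 103 and 91.2 FPKM after SCARNA13 ASO, and was lower in 3 of 3 replicate numbers by ratios of 0.927, 0.948 and 0.992. That direction turned with the scale, at a log2 fold change of -0.07 ± 0.23 (SE, n = 3) on the deposited scale and 0.03 when libraries were scaled to their total reads. ANXA6, an annexin with a doubled core, had 27.0, 26.7 and 39.0 FPKM against 28.5, 28.6 and 42.0 FPKM, with ratios of 1.05, 1.07 and 1.08. Its log2 fold change was 0.09 ± 0.28 with group only and 0.15 ± 0.059 (SE, n = 3) with block and GC correction.

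**Figure D2:**
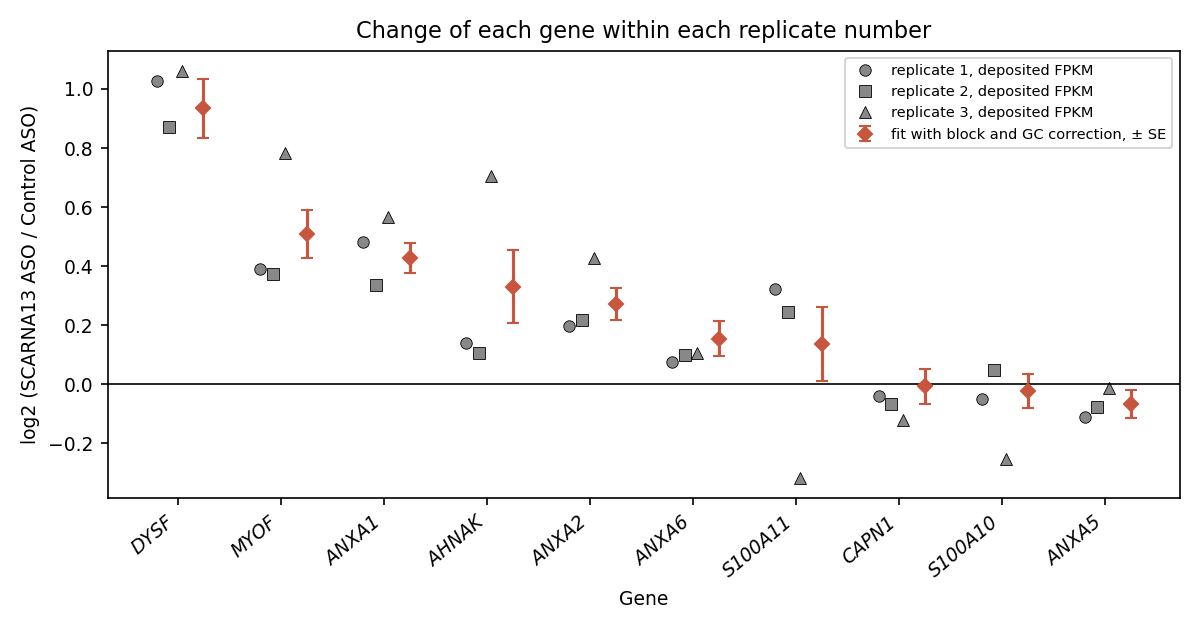
Log2 ratio of SCARNA13 ASO to Control ASO for each gene within replicates 1, 2 and 3 (grey circles, squares and triangles, deposited FPKM), and the log2 fold change of the fit with replicate block and GC correction (red diamonds, bars are ± SE, n = 3 pairs). DYSF lies highest at 0.93, MYOF, ANXA1, AHNAK and ANXA2 lie between 0.27 and 0.51, and CAPN1, S100A10 and ANXA5 lie at or just below 0.

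The S100 partners of the annexins did not differ in one direction over the replicate numbers. S100A10 had 270, 252 and 447 FPKM in the controls and 261, 261 and 376 FPKM after SCARNA13 ASO, with ratios of 0.966, 1.03 and 0.839. S100A11 had 1003, 982 and 3305 FPKM against 1253, 1164 and 2653 FPKM, so that it was higher in replicates 1 and 2 (ratios of 1.25 and 1.19) and lower in replicate 3 (0.803). Its log2 fold change was 0.14 ± 0.13 with block and GC correction over all libraries and 0.30 without replicate 3. Both genes lie on chromosome 1, 38115 bases apart. S100A10 was higher only in replicate 2, and by less than ANXA2. The level of ANXA2 over S100A10 went from 0.533, 0.574 and 0.216 in controls to 0.633, 0.645 and 0.345 after SCARNA13 ASO, higher in 3 of 3 replicate numbers.

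CAPN1, the catalytic subunit of calpain 1, had 38.5, 38.4 and 104 FPKM in the controls and 37.4, 36.6 and 96.0 FPKM after SCARNA13 ASO. The ratios were 0.972, 0.955 and 0.920, and the log2 fold change of -0.08 ± 0.57 with group only became -0.0075 ± 0.060 (SE, n = 3) with block and GC correction and 0.02 when libraries were scaled to their total reads. An antisense gene, AP003068.2, with a mean of 2.43 FPKM, covers 433 exonic bases of CAPN1 (5.73%), and reads there cannot be assigned without strand. No other of the 10 genes shares exonic bases with another gene in GENCODE 29. AHNAK had 46.4, 48.5 and 27.6 FPKM against 51.1, 52.1 and 45.0 FPKM, with ratios of 1.10, 1.08 and 1.63. Replicate 3 carried most of that difference: the log2 fold change was 0.33 ± 0.12 (SE, n = 3) with block and GC correction and 0.14 without replicate 3. With group only it was 0.31 ± 0.29, and 0.056 without control replicate 3.

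As a set, 6 of the 10 genes were higher after SCARNA13 ASO in 3 of 3 replicate numbers on the deposited scale, 2 were lower (ANXA5 and CAPN1) and 2 were mixed (S100A10 and S100A11). Over all tested genes the shares were 23.9% higher and 29.6% lower. ANXA5 and CAPN1 had more reads in SCARNA13 ASO replicate 3 (4301 and 11278) than in control replicate 3 (3650 and 10314). Their place among the lower genes thus depends on the scale. The median log2 fold change of the 10 genes was 0.19 with group only and 0.21 with block and GC correction, against -0.02 and 0.00026 over all tested genes. Adjusted p-values under 0.05 in limma with block and GC correction were reached by 526 of 10104 genes (5.21%), of which 309 (3.06%) rose and 217 (2.15%) fell. DYSF, MYOF and ANXA1 were among those 309. Nothing is read from that count, because the genes were chosen with this comparison known. With group as the only term, limma called 0 of 10120 genes (173, or 1.71%, at an unadjusted p under 0.05), none of the 10 included. Reads of the 10 genes together made up 0.578%, 0.581% and 0.378% of the control libraries and 0.674%, 0.658% and 0.474% of the SCARNA13 ASO libraries. Changes in how many cells express a gene and in RNA per cell cannot be told apart in such bulk samples.

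The offset of replicate 3 followed GC content among these genes as among all genes. GC content, taken from the longest GENCODE 29 transcript, ran from 39.3% for ANXA1 to 60.5% for CAPN1. In the control group, replicate 3 differed from the mean of replicates 1 and 2 by -1.23 on the log2 scale for ANXA1 and by 1.43 for CAPN1. In the SCARNA13 ASO group these offsets were -1.08 and 1.36. Across the 10 genes, Pearson's r between offset and GC content was 0.842 in controls and 0.921 after SCARNA13 ASO, against 0.792 and 0.798 across 10104 genes. All points share the same libraries, so these are descriptions.

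**Figure D3:**
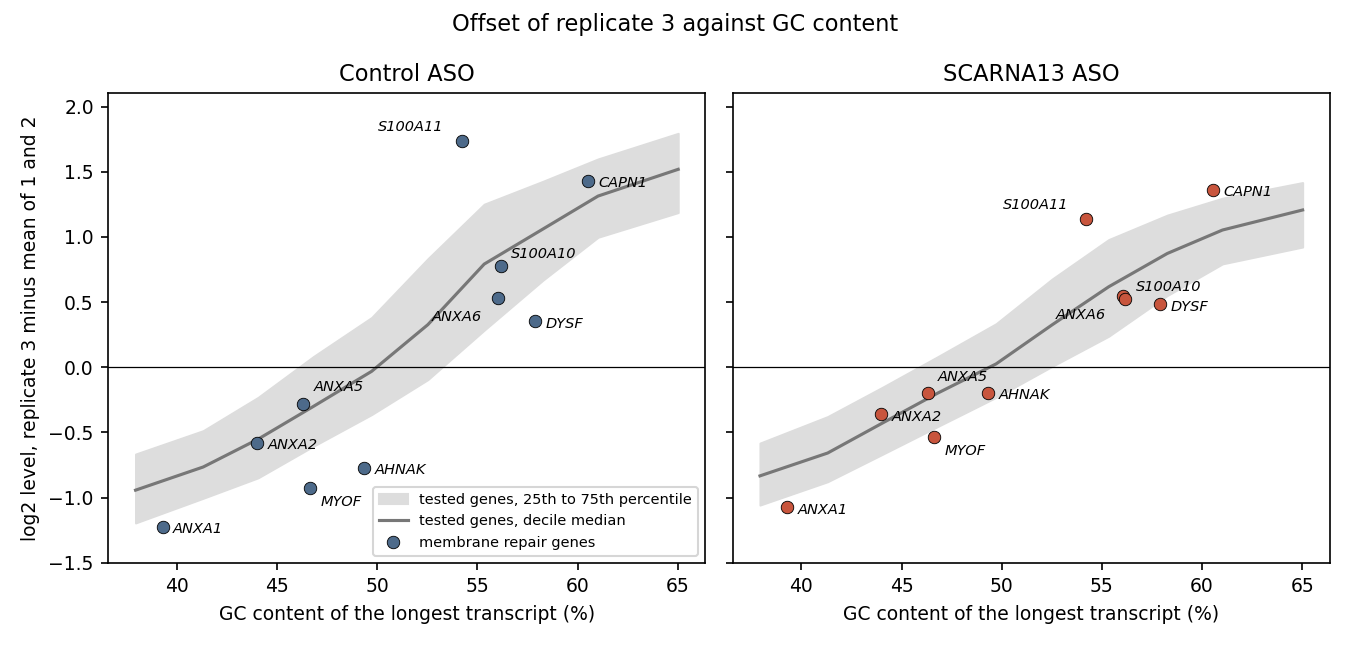
Log2 level in replicate 3 minus the mean of replicates 1 and 2 against GC content (%), for Control ASO (left) and SCARNA13 ASO (right). Grey lines and bands are the median and the 25th to 75th percentiles of all tested genes by GC decile, and dots are the 10 genes, which rise with GC content in both groups.

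Several genes sat off the trend. S100A11 at 54.2% GC had an offset of 1.74 in controls and 1.13 after SCARNA13 ASO, above the 75th percentile of both neighbouring GC deciles in each group. DYSF at 57.9% GC had offsets of 0.35 and 0.48, below the 25th percentile of the nearest decile (0.67 and 0.55). AHNAK at 49.3% GC had -0.77 in controls but -0.19 after SCARNA13 ASO, and MYOF at 46.6% GC had -0.92 and -0.53. After GC correction, the log2 differences between the groups in replicate 3 were 0.69 for AHNAK and 0.73 for MYOF, against 0.14 to 0.16 and 0.40 to 0.41 in replicates 1 and 2.

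Other genes of membrane repair were taken from 8 lists chosen by function, with 80 genes, of which 59 could be tested. In limma with block and GC correction, 1 rose, 0 fell and 58 did not pass, where 5.21% of all genes passed. With group only 0 passed. Their median log2 fold change was 0.038. The gene that rose was AHNAK2, the paralog of AHNAK, from 26.1, 27.5 and 19.3 FPKM to 34.0, 37.6 and 29.4 FPKM. Its groups did not overlap, which held in this direction for 4.0% of all genes and also for EZR and STX4 of the lists. The log2 fold change was 0.54 ± 0.093 (SE, n = 3, limma adjusted p = 0.047 with block and GC correction, 0.03 to 1.0 over the settings tried). The call was lost without replicate 1 (log2 fold change 0.61, limma adjusted p = 0.0824) and without replicate 2 (0.59, limma adjusted p = 0.123). With the replicate block alone AHNAK2 was not called, at 0.47 ± 0.075 (SE, n = 3, limma adjusted p = 0.076). At 58.3% GC it also sat off the GC trend. Its replicate 3 offsets were -0.46 in controls and -0.28 after SCARNA13 ASO, below the 25th percentile of the nearest decile (0.67 and 0.55). After GC correction, the log2 differences of AHNAK2 in replicates 1, 2 and 3 were 0.39, 0.42 and 0.79. Why the call was lost was not tested.

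Among the other annexins, 3 of 9 were expressed above the threshold and 0 passed. ANXA4 had the largest difference, from a control mean of 1.29 ± 0.479 FPKM to 1.93 ± 0.372 FPKM with SCARNA13 ASO (SD, n = 3; log2 fold change 0.43 ± 0.099, limma adjusted p = 0.0674). ANXA7 and ANXA11 stood at 0.046 and 0.067. Of 11 other S100 genes, 6 were tested and 0 passed. S100A13 and S100A3 had log2 fold changes of -0.26 ± 0.056 and -0.22 ± 0.058 (limma adjusted p = 0.0601 and 0.0832).

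In the calpain system, 7 of 8 genes were tested and 0 passed. CAPN2, the catalytic subunit of the second ubiquitous calpain, had 23.2, 23.6 and 11.9 FPKM in the controls and 28.5, 27.5 and 19.9 FPKM after SCARNA13 ASO, at a log2 fold change of 0.40 ± 0.093 (SE, n = 3; limma adjusted p = 0.0676), where CAPN1 stood at -0.0075. With group only CAPN2 was at 0.41, and at 0.090 without control replicate 3. CAPNS1, the small subunit shared by both, was at -0.089 ± 0.049, and CAST, the calpain inhibitor calpastatin, at 0.12 ± 0.075. The muscle calpain CAPN3 and TRIM72, the muscle repair protein MG53, had means below 0.02 FPKM in both groups.

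ESCRT proteins, which pinch off damaged membrane, had 13 of 15 genes tested and 0 that passed, with a median of 0.023. CHMP3 and CHMP6 stood at 0.46 ± 0.10 and 0.28 ± 0.058 (limma adjusted p = 0.0624 and 0.0605). Of the caveolae and EHD genes, 10 of 12 were tested and 0 passed. EHD3, of an endocytic recycling family, had a control mean of 6.0 ± 0.149 FPKM against 4.58 ± 0.305 FPKM with SCARNA13 ASO (SD, n = 3), with groups that did not overlap and a log2 fold change of -0.31 ± 0.062 (limma adjusted p = 0.0565). Of the genes for lysosome exocytosis and vesicle fusion, 11 of 12 were tested and 0 passed, the nearest being the lysosomal calcium channel gene MCOLN1 at -0.37 ± 0.070 (limma adjusted p = 0.0515). In replicates 1 and 2 alone, with group as the only term, limma called 4 of the 59 genes against 8.94% of all 10156 tested (4.41% higher and 4.53% lower). AHNAK2, CAPN2 and the cathepsin gene CTSB rose there, and EHD3 fell.

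**Figure D4:**
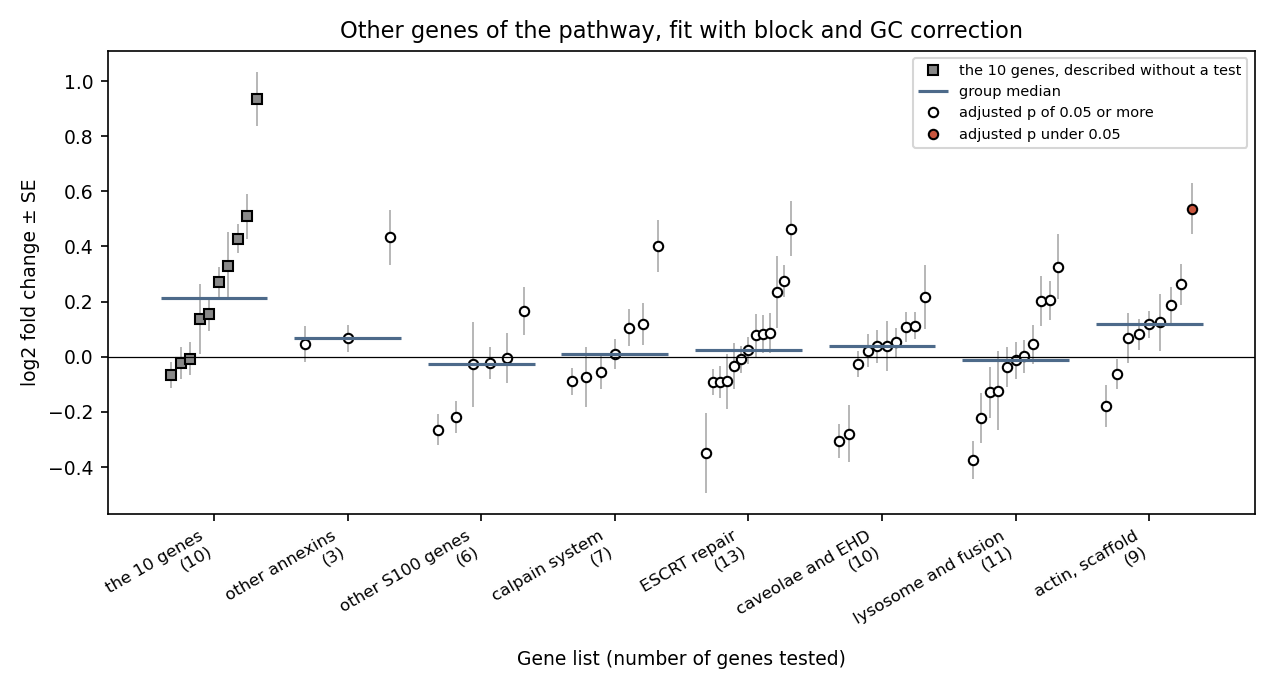
Log2 fold changes ± SE (n = 3 pairs) of the 10 genes (grey squares) and of 59 other membrane repair genes by list (circles, red where limma's adjusted p is under 0.05), from the fit with replicate block and GC correction, with group medians as blue lines. AHNAK2 at 0.54 is the red point, and the medians of the other lists lie between -0.025 and 0.12.

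The genes most like DYSF were found by Pearson correlation of log2 levels over the 6 libraries, after the mean of each replicate number was subtracted. HTRA1, PSD3, LPP, WIPI1 and CDH4 came first, at r between 0.99985 and 0.99995. This measure sees mainly whether the difference was even across the replicate numbers and not its size, and 232 of 10119 genes (2.29%) had an r above 0.99. The ratios of HTRA1, a secreted serine protease, were 1.39, 1.33 and 1.45, and those of WIPI1, an autophagy gene, 1.32, 1.27 and 1.36, all smaller than those of DYSF.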

How the data were processed

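RNA was extracted with Trizol and libraries were made with an Illumina TruSeq kit, per the labels' protocols. TopHat2 2.0.9, Bowtie2 2.0.6 and the build hg19 appear in the submitters' processing notes; their roles, the counting tool, the strand setting and the scaling are not stated in the sources used here. The files deposited by the authors hold 1 FPKM value per gene and library. Their positions are GRCh38: 97.6% of 58039 identifiers had the same start and end in GENCODE 29.

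FPKM times gene length was a whole multiple of 1 step per library for 100% of values (tolerance 0.01), so reads were recovered. The test was limma-trend (limma 3.58.1, R 4.3.3) on log2(FPKM + 0.5), keeping genes whose mean reached 1 FPKM, two-sided, with Benjamini-Hochberg adjustment over all genes and group as the only term. Deviations from the group means correlated at 0.835, 0.785 and 0.915 between same-numbered libraries, so replicate numbers from the titles were taken as pairs; the crossed values for replicates 1 and 2 were 0.805 and 0.814, so that only replicate 3 is set apart by the data. A further fit added a replicate block and subtracted a loess trend on GC content (span 0.5), for 10104 genes. No libraries agreed within sampling noise. ANXA2P2 was aligned with BLAST+ 2.17.0.

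The 10 genes, the lists and the tests were chosen with earlier results of these data known. Named genes are the 10 members and, of each list, up to 3 with the smallest p in the fit with block and GC correction. That was fewer per list than planned. The 5 genes most like DYSF are named too. The low or absent OTOF, FER1L4, FER1L5, FER1L6, CAPN3 and TRIM72 and the cell type markers are named outside this rule. Alternatives covered pairing, GC correction, pseudocount, filter, scaling, limma-voom, the variance trend and left-out libraries.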

Additional observations from a re-analysis of the deposited data

How the results depend on the processing

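Of the 10 genes, DYSF, MYOF, ANXA1, ANXA2 and AHNAK kept their direction under all settings run for them, but not their size. With group only, leaving out 1 library gave 0.71 to 0.99 for DYSF, 0.20 to 0.69 for MYOF, 0.049 to 0.82 for ANXA1, 0.086 to 0.40 for ANXA2 and 0.056 to 0.46 for AHNAK, the lowest without control replicate 3 for all but DYSF (without SCARNA13 ASO replicate 3). The other 5 changed sign in 19 values, 13 of them on leaving out 1 library. The SD between single libraries was larger than each of these moves. Replicate 3 widens that SD, so the comparison gives no measure of how stable the values are. The count of genes called by limma was 0 with group only, 526 with the replicate block and GC correction, 766 when replicate 3 was also left out, 36 without replicate 1, 7 without replicate 2, and 908 in replicates 1 and 2 with no replicate block, a setting added after the data were seen. The block alone called 0 (smallest adjusted p = 0.0506). Of the pathway genes, 1 was called with block and GC correction, 0 without replicate 1 or 2, 3 without replicate 3, and 4 in replicates 1 and 2 with no block. The 10 genes had 3 calls with block and GC correction (DYSF, MYOF, ANXA1), beside 5.21% of all genes, and 0 without replicate 1 or 2. Without replicate 3 they had 5, which added ANXA2 and S100A11, beside 766 of 10140 genes. The same 5 were called in replicates 1 and 2 with no block, beside 8.94% of all genes. Nothing is read from these counts, because the genes were chosen with this comparison known. Among the 22 named genes of the lists, which include the copy ANXA2P2, ANXA7 reversed to -0.015 (block and GC correction without replicate 3) and -0.029 (replicates 1 and 2, no block). With group only, leaving out 1 library changed the sign of several log2 fold changes. They ran from -0.87 to 0.12 for MCOLN1, -0.63 to 0.076 for S100A13, -0.26 to 0.72 for CHMP6 and -0.65 to 0.18 for S100A3. The range was -0.087 to 0.49 for PARVB, -0.015 to 0.28 for ANXA2P2, -0.086 to 0.51 for CTSB and -0.81 to 0.32 for CAVIN3. It was -0.29 to 0.53 for CAVIN2, -0.028 to 0.36 for S100A4, -0.48 to 0.26 for CAPNS1 and -0.11 to 0.30 for CAST. For ANXA11 it was -0.20 to 0.30 and for ANXA7 -0.19 to 0.23. These fits ignore the replicate number, and leaving out 1 library makes the replicate numbers unequal between the groups. Within replicate numbers on the deposited scale, MCOLN1, S100A13, S100A3, CAVIN3 and CAPNS1 were lower in 3 of 3. CHMP6, PARVB, ANXA2P2, CAVIN2 and CAST were higher in 3 of 3, and CTSB, S100A4, ANXA11 and ANXA7 were mixed. Other genes kept their sign on leaving out 1 library but moved by over 1.5 times from their value with all libraries. These were CAPN2 (0.090 to 0.57), ANXA4 (0.22 to 0.60) and CHMP3 (0.25 to 0.64). STX4 (0.15 to 0.35), EZR (0.082 to 0.20) and CHMP1B (-0.50 to -0.13) did so too. AHNAK2 ran from 0.32 to 0.57. On recovered reads limma-voom was run; the planned quasi-likelihood count test was not run.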
